A study of Mus musculus with 3 samples.

Results

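A set of 10 genes of the endothelial adherens junction was followed in RNA that was bound to ribosomes of heart endothelial cells. They are the cadherins Cdh5 and Cdh2, the adhesion molecule Pecam1, the catenins Ctnna1, Ctnnb1, Ctnnd1 and Jup, the linker Afdn, and the protocadherins Pcdh1 and Pcdh12. They were selected by gene symbol, with earlier results of these data already known, and all 10 are among the 17583 genes of the table analysed here. The table holds 3 libraries of 1 group, 1 per EC-RiboTag mouse. These mice carry Cdh5-CreERT2, a Cre recombinase driven by the Cdh5 promoter and switched on by tamoxifen, and the allele Rpl22tm1.1Psam, in which Cre places a hemagglutinin tag on a ribosomal protein. Tagged ribosomes were pulled down from heart homogenates and their RNA was sequenced. According to the labels a coronary artery had been ligated 7 days earlier, while the study's RiboTag methods state no infarction, and the labels give neither age nor sex. The sample titles include Rz, an abbreviation the labels leave unexplained. Elsewhere the study writes RZ for the remote zone of infarcted hearts and describes RiboTag RNA from it, but no label says that these libraries come from that zone. No library of another condition, of unenriched heart or of mice without Cre was analysed here, so every value is a level within the pulled-down RNA and no condition is compared with another.

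Adherens junctions hold neighbouring endothelial cells together. The outer part of a cadherin binds a cadherin of the next cell, and its inner tail binds p120-catenin near the membrane and either beta-catenin or plakoglobin further along. These last proteins bind alpha-catenin, which couples the junction to actin. In the vessel wall the junctions set how freely fluid and leukocytes pass, and beta-catenin also serves as a transcriptional partner in Wnt signalling.

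The values are read counts per gene that the authors scaled between libraries and gave as whole numbers, called normalized counts here. They summed to between 7149102 and 7268785 per library, and 1 read was worth between 0.961 and 1.06 normalized counts, so that 1 normalized count is close to 1 read. Levels of 10 endothelial markers other than the 10 genes were examined. Without a library of unenriched heart, these levels do not measure how far endothelial RNA was enriched. The study itself compared pulled-down RNA with the homogenate by quantitative PCR, for Cdh5, Pecam1 and Myh6 among others. All 10 markers were present, with a median of 0.673 ± 0.023 normalized counts per base of transcript (SD, n = 3 mice). The 10 cardiomyocyte markers were present too, all of them in every mouse, with a median of 0.565 ± 0.019 per base and summed levels per base of 4.86, 4.73 and 4.55 in mice 1, 2 and 3. Their summed normalized counts ran the other way, with 20105, 20765 and 23893. Of these the long gene Ttn held 7379, 7743 and 10190, and Ryr2 held 3280, 3667 and 4486. Counts of Actc1, Tnni3, Myl2, Myl3 and Mb fell from mouse 1 to mouse 3. Medians per base were lower for fibroblast markers (0.0924 ± 0.0201, 7 of 7 listed), mural markers (0.0438 ± 0.0070, 7 of 7) and leukocyte markers (0.0230 ± 0.0055, 6 of 7, Cd3e not listed). Some of the 10 genes are also used by cardiomyocytes, and RNA of either origin cannot be told apart in these libraries. Nor can the number of contributing cells be told apart from the RNA per cell. The mice also differed in sex-linked RNA. Xist had 4, 618 and 869 normalized counts and Ddx3y had 1080, 3 and 1 in mice 1, 2 and 3.

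Of the 10 genes, 8 were among the most abundant of the table. Their ranks by mean normalized count lay between 46 for Cdh5 and 503 for Pcdh12. Ctnnd1 ranked 6387 and Cdh2 ranked 9972. The median rank of the 10 genes was 99.5, and the median gene of the whole table had 237 normalized counts. Within each gene the mice lay close together. The ratio of the highest to the lowest mouse was between 1.03 for Ctnna1 and 1.17 for Afdn.

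**Figure D1:**
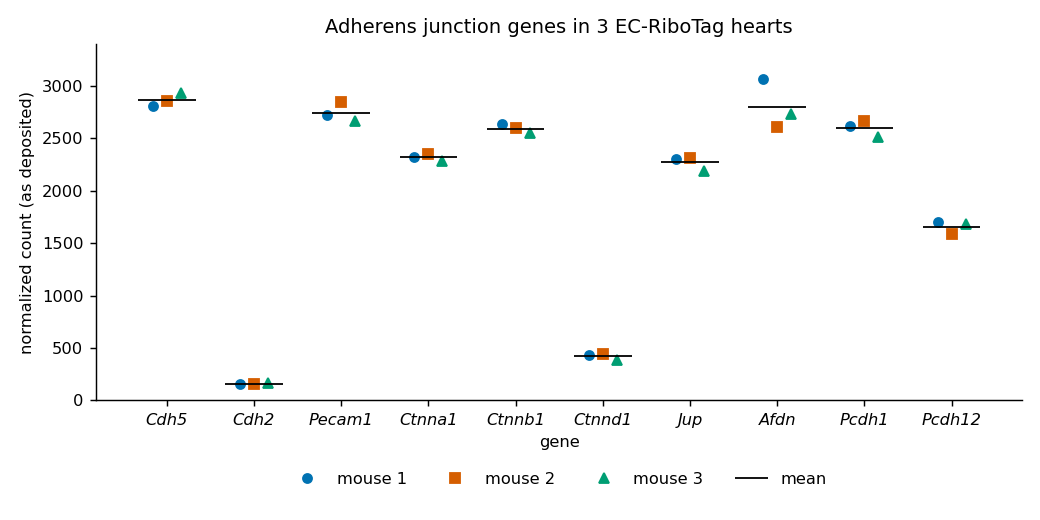
Normalized counts as deposited (vertical axis, linear from 0) of the 10 genes in mouse 1, mouse 2 and mouse 3 (points), with the mean as a line. Mice lie close together within each gene, Afdn spans the widest range from 2611 to 3062, and Ctnnd1 and Cdh2 lie far below the other genes.

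Cdh5 encodes VE-cadherin, the cadherin that defines endothelial junctions. The gene (ENSMUSG00000031871) is on chromosome 8 of GRCm39 (plus strand, 104828257 to 104871143). Its canonical transcript has 12 exons and 4021 bases. Mice 1, 2 and 3 had 2808, 2860 and 2930 normalized counts, a mean of 2866 ± 61.2 (SD, n = 3). The SD was close to the 53.5 expected from counting reads alone. Per base of canonical transcript this is 0.713 ± 0.015, above 98.7% of the 9356 genes that had a mean of at least 200 and a known length. The promoter of the same gene drives the Cre of these mice, so tagging depended on its use when tamoxifen was given. How much RNA came along without tagged ribosomes was not measured.

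Cdh2 encodes N-cadherin, which joins cardiomyocytes at intercalated discs and endothelial cells to mural cells. The gene (ENSMUSG00000024304, chromosome 18, minus strand, 16721934 to 16942303) had 152, 154 and 169 normalized counts in mice 1, 2 and 3, a mean of 158.3 ± 9.3 (SD, n = 3). With a canonical transcript of 4921 bases, this came to 0.0322 ± 0.0019 per base. The values of the 3 mice lay within 9.29 (SD), less than the 12.6 expected from counting alone. Of the windows of read length in this transcript, 1.4% occur again, letter for letter, at another place in the genome and yield no unique reads, and the other 9 genes have none. Cdh2 was the lowest of the 10 genes by either scale, in the same libraries whose cardiomyocyte and mural markers are given above.

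Among 23 classical, type II and related cadherins, Cdh5 took 50.0% ± 2.1 (SD, n = 3) of the summed levels per base and Cdh2 took 2.26% ± 0.03. The next largest share belonged to Cdh13, T-cadherin, a cadherin without an inner tail that is held by a lipid anchor. Cdh13 took 35.7% ± 1.5, with 1941, 2005 and 2054 normalized counts and 0.509 ± 0.014 per base. By length of all annotated exons, the shares were 69.4% ± 2.2 for Cdh5 and 18.4% ± 0.6 for Cdh13. Cdh11, a cadherin known from fibroblasts, had 464, 302 and 835 normalized counts in mice 1, 2 and 3. It was lowest in mouse 2 and highest in mouse 3. Of the 7 fibroblast markers, 2 (Dcn and Lum) had that order and the others were lowest in mouse 1, as was the sum of the list with 2703, 3229 and 3515. The part of fibroblast RNA in Cdh11 was not tested. Of the 21 other cadherins, 11 were not listed, E-cadherin (Cdh1) among them, and the table lists no gene with fewer than 4 normalized counts in its highest mouse.

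Pecam1 encodes CD31, an immunoglobulin-type adhesion molecule of endothelial contacts that is not a cadherin. It lies on the minus strand of chromosome 11 (ENSMUSG00000020717, 106545043 to 106641454). Its normalized counts were 2722, 2847 and 2668, a mean of 2746 ± 91.8 (SD, n = 3). Its canonical transcript is 3678 bases long, and per base Pecam1 had 0.747 ± 0.025, the highest mean of the 10 genes. It exceeded Cdh5 in mice 1 and 2 and not in mouse 3, so the order of these endothelial genes is not settled by the 3 mice.

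The cadherin tail is bound by beta-catenin or by plakoglobin, and both genes were present at nearly the same level per base of canonical transcript. Ctnnb1, which encodes beta-catenin (ENSMUSG00000006932, chromosome 9, plus strand, 120758282 to 120789573), had 2634, 2594 and 2553 normalized counts, a mean of 2594 ± 40.5 (SD, n = 3). Jup, which encodes plakoglobin or gamma-catenin (ENSMUSG00000001552, chromosome 11, minus strand, 100259784 to 100288589), had 2305, 2314 and 2189, a mean of 2269 ± 69.7. Per base, Ctnnb1 had 0.712 ± 0.011 and Jup had 0.687 ± 0.021. Ctnnb1 was above Jup in every mouse by a log2 ratio of 0.05 ± 0.03, and made up 50.9% ± 0.5 of the summed level of the pair. On unshared bases inside the table's bounds the ratio was 0.022 and its sign differed between mice, and per base of all annotated exons it was 0.31. Plakoglobin is also a component of desmosomes. Other desmosomal genes were listed below Jup per base. Dsp, desmoplakin, had 0.144 ± 0.002, Dsg2 had 0.0671 ± 0.0036, and Pkp2, plakophilin, had 0.0861 ± 0.0064. Their cell of origin was not tested.

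Ctnna1 encodes alpha-E-catenin, the link from beta-catenin or plakoglobin to actin (ENSMUSG00000037815, chromosome 18, plus strand, 35251912 to 35387832). It had 2318, 2350 and 2286 normalized counts, a mean of 2318 ± 32.0 (SD, n = 3), below the SD of 48.1 that counting alone would give. Per base it had 0.620 ± 0.009. The neuronal alpha-catenin gene Ctnna2 was not listed. The heart alpha-catenin gene Ctnna3, known from cardiomyocytes, had 21, 13 and 24 normalized counts. Ctnna1 therefore made up 99.7% ± 0.1 of the summed levels per base of the alpha-catenin family.

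Ctnnd1 encodes p120-catenin, which binds the cadherin tail close to the membrane and keeps the cadherin at the cell surface. It lies on the minus strand of chromosome 2 (ENSMUSG00000034101, 84430415 to 84481109) and had 433, 446 and 389 normalized counts, a mean of 422.7 ± 29.9 (SD, n = 3). With a canonical transcript of 10308 bases this is 0.0410 ± 0.0029 per base, and only 2.76% of genes with a mean of 200 or more were lower. The authors counted no read that overlapped more than 1 gene, and in the GENCODE annotation 96.6% of the coding bases of Ctnnd1 (2493 of 2580) are also exons of Gm28635. Gm28635 is annotated on the same strand as a read-through gene whose first exons lie in the neighbouring gene Tmx2. It is not listed in the table. The annotated transcript also runs 4456 bases beyond the end that the table gives for Ctnnd1. That leaves 1795 bases inside the table's bounds which no other gene shares, and per such base Ctnnd1 had 0.235 ± 0.017. The median among genes whose mean reached 200 was 0.176, but per base of full canonical transcript. No median per unshared base was taken, so these values are not on the same scale. The unshared length was chosen after the values were seen. Whether the older annotation of the authors held the same overlap was not examined. Of the other 9 genes, Ctnnb1 alone has an exonic base in common with another gene, outside its canonical transcript.

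**Figure D2:**
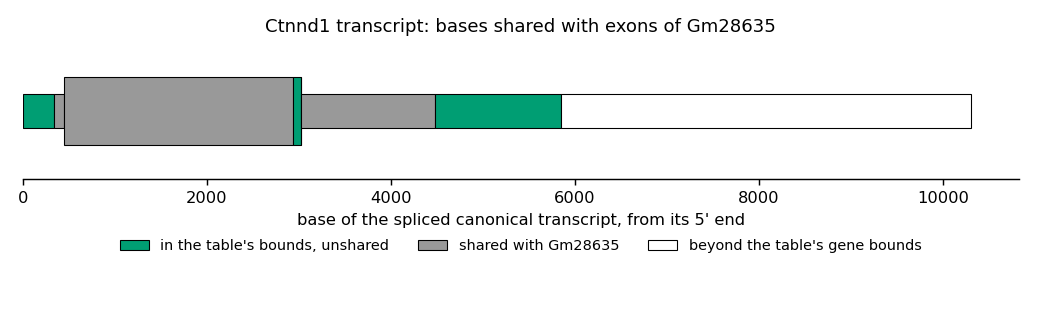
Spliced canonical transcript of Ctnnd1, in bases from its 5′ end (horizontal axis); the tall box is coding sequence and the low boxes are untranslated. Grey bases are shared with Gm28635, green bases are unshared and inside the gene bounds of the table (1795 bases), and white bases lie beyond those bounds (4456 bases). Nearly the whole coding sequence is grey.

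The armadillo proteins related to p120-catenin differed widely. Pkp4, which encodes p0071, had 2430, 1970 and 2334 normalized counts and 0.489 ± 0.053 per base. Arvcf had 78, 112 and 102 normalized counts and 0.0230 ± 0.0041 per base, and Ctnnd2, known from neurons, was not listed. Ctnnbip1, which encodes an inhibitor of the binding of beta-catenin to TCF factors, had 1798, 1733 and 1629 normalized counts and 0.616 ± 0.031 per base.

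Afdn encodes afadin, which ties nectins to actin and to the catenins. It lies on the plus strand of chromosome 17 (ENSMUSG00000068036, 13980801 to 14126412). Its normalized counts were 3062, 2611 and 2736, a mean of 2803 ± 232.8 (SD, n = 3), highest in mouse 1 and lowest in mouse 2. Its SD was well above the 52.9 expected from counting alone, and its coefficient of variation of 8.31% was the largest of the 10 genes. The canonical transcript has 32 exons and 8207 bases, so that the level per base, 0.342 ± 0.028, was below those of 6 of the 10 genes in spite of the high count. Its partners, the nectins, are adhesion molecules of the immunoglobulin type. The list called nectins here also holds the related gene Pvr, which is not counted as a partner of afadin. All 5 genes searched were listed. Nectin2 was the highest with 0.399 ± 0.022 per base, Pvr had 0.237 ± 0.042, Nectin3 had 0.0901 ± 0.0075, Nectin1 had 0.0255 ± 0.0067, and Nectin4 was lowest with 0.0033 ± 0.0008.

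Protocadherins are cadherin-type proteins whose inner parts do not bind beta-catenin. Pcdh1 (ENSMUSG00000051375, chromosome 18, minus strand, 38318967 to 38345106) had 2613, 2669 and 2511 normalized counts, a mean of 2598 ± 80.1 (SD, n = 3), and 0.655 ± 0.020 per base. Pcdh12, VE-cadherin-2, a protocadherin described in endothelium, is annotated nearby on the same strand (ENSMUSG00000024440, 38400142 to 38417455). It had 1700, 1588 and 1686 normalized counts, a mean of 1658 ± 61.0, and 0.299 ± 0.011 per base. Together with Pcdh17 they were the highest nonclustered protocadherins. Pcdh1 took 53.1% ± 1.9 and Pcdh12 took 24.2% ± 0.8 of the summed levels per base of 12 such genes, 9 of them listed. Per base of all annotated exons the pair drew closer, with 36.2% ± 1.6 for Pcdh1 and 34.0% ± 0.8 for Pcdh12, and Pcdh1 stayed higher in every mouse. Pcdh17 had 1745, 1521 and 1694 normalized counts and 0.144 ± 0.010 per base.

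Ordered by level per base of canonical transcript, the genes ran from Pecam1 and Cdh5 through Ctnnb1, Jup, Pcdh1 and Ctnna1 to Afdn, Pcdh12, Ctnnd1 and Cdh2. The first 6, from Pecam1 to Ctnna1, lay between 0.620 and 0.747 and above the 90th percentile of 0.428. Of the 9 neighbouring pairs in this order, 7 differed by more than the larger SD and kept their order in every mouse. Pecam1 and Cdh5, and Cdh5 and Ctnnb1, did not. The choice of length changed this order. Per base of all annotated exons Cdh5 stood first with 0.654 ± 0.014 and rank 18 of all genes, Ctnnb1 followed with 0.318 ± 0.005, and Pecam1 came after Pcdh1 with 0.275 ± 0.009, because Cdh5 has few annotated exonic bases outside its canonical transcript (4381 in all) and Pecam1 has many (10002). The authors removed duplicate reads with a tool that by default compares the positions where reads start, and the setting used is not given in the sources used here. Removal by start would hold a transcript of known ends near 1 read per base, and 14 genes of the table lay above 1 per base of canonical transcript. With removal by start and reads taken to start evenly along the transcript, a correction chosen after the values were seen, the 0.747 of Pecam1 corresponds to 1.38 per base before removal, the 0.713 of Cdh5 to 1.26, and the 0.0322 of Cdh2 to 0.0327. Differences among the 6 highest genes are thus narrower in these counts than under this correction.

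**Figure D3:**
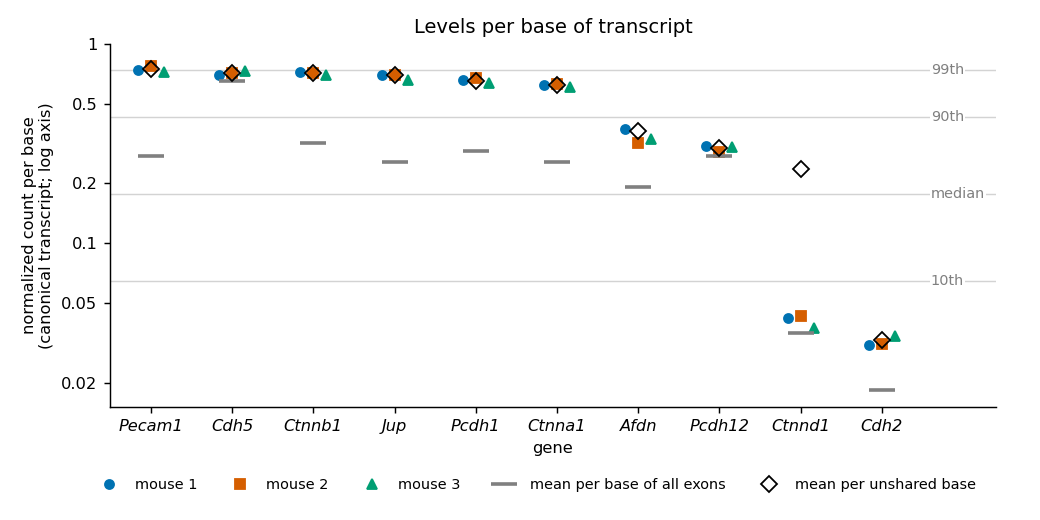
Normalized count per base of canonical transcript (log axis) for the 10 genes in order of their mean, with mice 1 to 3 as coloured points. Grey dashes give the mean per base of all annotated exons and open diamonds the mean per unshared base. Thin lines are percentiles, by canonical length, of genes whose mean reached 200. The first 6 genes lie above the 90th percentile by canonical length, and Ctnnd1 moves from 0.0410 to 0.235 when shared bases are left out.

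A total of 9 pairs chosen by role was compared within each mouse as log2 ratios of levels per base, with a pseudocount of 0.5. The smallest two-sided p that an exact sign-flip permutation test allows with 3 mice is 0.25, and no pair can reach 0.05. Cdh5 exceeded Cdh2 by log2 ratios of 4.49, 4.50 and 4.40, a mean of 4.47 ± 0.05 or 22.1-fold (SD, n = 3; exact p = 0.25). That mean moved with the processing by more than its SD. It was 4.175 without division by length, 5.16 with all annotated exons and 5.26 after the correction for duplicate removal. Cdh5 and Ctnnb1 had a mean log2 ratio of 0.0011 ± 0.0533, with the sign differing between mice (exact p = 1), and Cdh5 and Pecam1 had -0.07 ± 0.07, with the sign differing as well (exact p = 0.5). For the other pairs the sign was the same in all 3 mice (exact p = 0.25 each). Ctnna1 was below Ctnnb1 by a log2 ratio of -0.20 ± 0.02. Afdn was below Ctnna1 by -0.86 ± 0.13, and Pcdh12 was below Pcdh1 by -1.13 ± 0.09. Ctnnd1 was below Ctnnb1 by -4.12 ± 0.09, and Ctnna1 exceeded Ctnnd1 by 3.92 ± 0.08. On unshared bases these last ratios were -1.60 and 1.40.

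**Figure D4:**
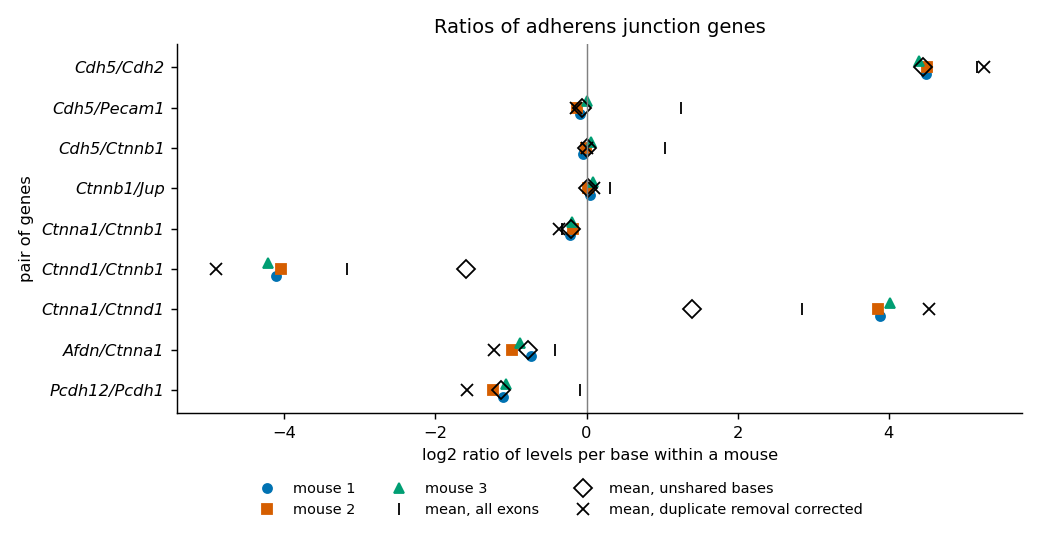
Log2 ratio of levels per base within each mouse (horizontal axis) for 9 pairs of genes, with mice 1 to 3 as coloured points and the mean under other lengths or the correction for duplicate removal as black symbols. Cdh5/Cdh2 is the largest ratio under each setting shown, and the ratios to Ctnnd1 come closest to 0 on unshared bases.

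The spread between mice was small in these counts. Among the 9 whose mean reached 200, none had a coefficient of variation over 20%, where 8% of all 9358 genes of that level did. None had one over 10% either, against 32.1% of all genes. The median coefficient was 3.08% for the 9 genes, from 1.38% for Ctnna1 to 8.31% for Afdn, and 7.37% for all genes of that level. Removal of duplicates can narrow differences between mice in genes with a level near 1 per base, so a small coefficient in the 6 highest genes does not show that their RNA was equally stable. In 3 of the 10 genes (Cdh2, Ctnna1 and Ctnnb1) the SD was below that expected from counting alone. Other genes with a high level per base had small coefficients too. Among the 242 genes at or above the level per base of Ctnna1, 0.826% exceeded 20%, 4.13% exceeded 10%, and the median coefficient was 4.86%. The 6 junction genes in this range, between 1.38% and 3.34%, lay below that median. Without mouse 1 the share of all genes over 20% was 4.84%, and none of the 9 junction genes was over it with any mouse left out.

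Other genes of the junction were followed in 7 lists by role, described by counts and medians since 1 condition gives no test. Junction phosphatases and kinases had the highest median, 0.302 ± 0.003 per base, with 9 of 9 listed and 7 above the median of all genes whose mean reached 200. Ptprb, the phosphatase VE-PTP that binds VE-cadherin, had 4347, 3891 and 4497 normalized counts and 0.356 ± 0.026 per base. Fyn was the highest with 0.409 ± 0.028 and Src the lowest with 0.0273 ± 0.0087, both being kinases of the Src family. Actin linkers and adaptors had a median of 0.128 ± 0.012, with 18 of 18 listed and 7 above the median of all genes. In that list Evl, a relative of VASP, was the highest with 0.703 ± 0.028. Vcl, vinculin, which binds alpha-catenin under tension, had 0.274 ± 0.037. Plekha7, which binds p120-catenin, had 0.0464 ± 0.0137 and 161, 298 and 257 normalized counts, lowest in mouse 1. Camsap3 was the lowest with 0.0048 ± 0.0026. Medians were 0.112 ± 0.016 for the desmosome and intercalated disc (10 of 10 listed), 0.0901 ± 0.0075 for nectins (5 of 5) and 0.0227 ± 0.0022 for other catenins and armadillo partners (7 of 10). In the intercalated disc list Gja1, the gap junction protein connexin 43, was the highest with 0.313 ± 0.014 and Ctnna3 the lowest with 0.0018 ± 0.0005. Medians were 0.0017 ± 0.0006 for other protocadherins and atypical cadherins (17 of 22) and 0 for other cadherins (10 of 21, the lowest of those listed being Cdh20 with 0.0012), counting genes not listed as 0. Among the protocadherins and atypical cadherins Clstn1, calsyntenin 1, was the highest with 0.433 per base, and Dchs2 was the lowest of those listed with 0.00022. The median of the 10 junction genes themselves was 0.638 ± 0.014.

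**Figure D5:**
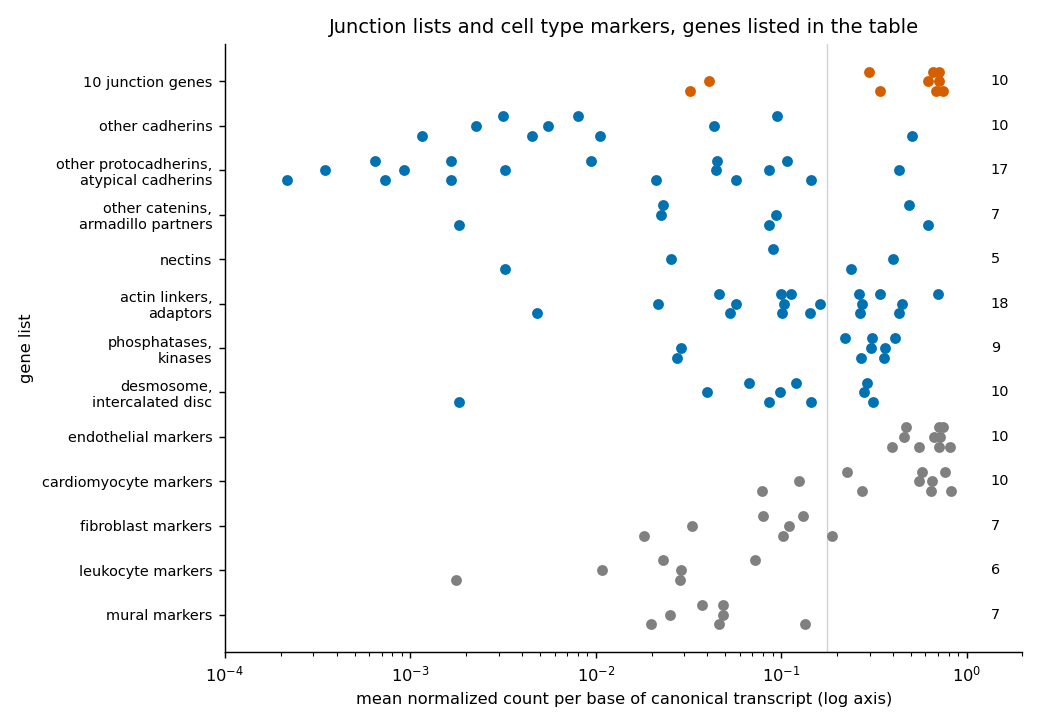
Mean normalized count per base of canonical transcript (log axis) for each listed gene of the junction lists (orange and blue) and of cell type marker lists (grey), with the number of listed genes at the right and the median of genes whose mean reached 200 as a thin line. Orange dots fall into a group of 8 above that line and 2 below it, Ctnnd1 and Cdh2, while the other cadherins spread down to 0.0012.

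Genes of the lists that varied between mice were named after their values were seen. Against the 8% of all genes with such a mean, a coefficient of variation over 20% was found among listed genes whose mean reached 200 in 2 of 3 other cadherins (Cdh11 and Cdh23), 3 of 8 other protocadherins and atypical cadherins (Pcdh7, Dchs1 and Celsr2), 1 of 4 catenins and partners (Ctnnal1), 2 of 16 actin linkers (Plekha7 and Lpp) and 1 of 8 phosphatases and kinases (Ptprj). It was also found in 2 of 8 genes of the intercalated disc, Xirp1 and Xirp2, and in none of 3 nectins. Of these 11 genes, Cdh11 and Cdh23 were lowest in mouse 2 and the others in mouse 1. Mouse 1 was also the lowest for the summed fibroblast, mural, leukocyte and lymphatic markers. For the summed endothelial markers it was the highest, with 23541 normalized counts against 22332 in mouse 2 and 22319 in mouse 3. The list was split, however. Tie1, Tek, Kdr, Flt1 and Emcn were highest in mouse 1, and Egfl7, Esam, Cldn5, Eng and Robo4 were highest in mouse 2. Mouse 1 was also the mouse with little Xist and much Ddx3y. With 3 mice these differences cannot be told apart, and their part in the 11 genes was not tested.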

How the data were processed

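RNA bound to tagged ribosomes was measured in 3 hearts of 1 group, and the labels call them biological replicates. The authors trimmed single-end reads (Trimmomatic 0.39), aligned them to mm39 (STAR 2.7.11a), removed duplicates (Picard 3.1.1) and counted reads on exons of a single gene on the correct strand (featureCounts 2.0.4). The deposited values are counts that the authors normalized with DESeq2 1.36.0 and rounded to whole numbers, treated here as a score and not as raw counts. By the size of the steps, they stand for about 7318900, 6754657 and 7565347 reads. No input library was analysed here.

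Genes were matched by symbol. Identifiers of 99.4% of the genes were found in GENCODE M39 (GRCm39), an annotation other than the one the authors used, and gave lengths of canonical transcripts. Levels per base, coefficients of variation (mean of at least 200) and log2 ratios within a mouse (pseudocount 0.5, exact two-sided sign-flip permutation test) were computed with Python 3.11.15, numpy 2.4.6 and pandas 2.3.3. The worth of a read, the call of variable genes and the scaling by trimmed means were tested on simulated data. Levels per base and log2 ratios were not. Exact copies of reads were searched with BLAST 2.17.0. The text names the 10 genes and, of each list by role, the highest, the lowest and members that share a direct partner with one of the 10. Genes named for a coefficient over 20% were chosen after their values were seen. The 10 genes and the lists were chosen with earlier results of these data known. Alternatives were other lengths, pseudocounts, scalings and minimum means, and leaving out each mouse. Promoter sequence is not reported here.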

Additional observations from a re-analysis of the deposited data

How the results depend on the processing

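With 3 mice of 1 condition these data give levels and no contrast, and an exact p cannot fall below 0.25. No paired comparison of conditions was possible because the series has a single group, and only the ratios of genes were taken within each mouse. The choice of length moved most values. The median level per base of the 10 genes, 0.638, was 0.265 with the length of all annotated exons, 0.843 with coding length, and 1.02 after the correction for duplicate removal, which was chosen after seeing the data. With the length of all exons the list medians were 0.0152 for other catenins and armadillo partners, 0.0444 for nectins, 0.101 for actin linkers, 0.157 for phosphatases and kinases, and 0.0927 for the desmosome and intercalated disc. The log2 ratio of Cdh5 to Pecam1 turned to 1.25 with all exons and to 0.062 without division by length, and that of Afdn to Ctnna1 turned to 0.27 without division by length. Leaving out single mice gave a ratio of Cdh5 to Ctnnb1 between -0.026 (without mouse 3) and 0.027 (without mouse 1), and other lengths moved it from 0.0011 to 1.04 (all exons), 0.14 (coding) and 0.14 (no division). The other 6 ratios kept their sign under every alternative run, and no count of variable genes among the 10 changed from 0.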

Other observations

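The clustered protocadherins were looked at after their values were seen. Of the genes annotated in each cluster, 0 of 14 alpha, 21 of 22 beta and 22 of 22 gamma genes were listed. The beta genes summed to 1779, 1820 and 1750 normalized counts in mice 1, 2 and 3, and Pcdhb14 was the highest with 282, 287 and 299 (289.3 ± 8.7, SD, n = 3). The gamma genes summed to 946, 1159 and 1944, and Pcdhgc3 was the highest with 294, 439 and 735 (489.3 ± 224.8). Gamma genes were thus highest in mouse 3, while beta genes were nearly level. Genes within the alpha cluster share their last exons, as do those within the gamma cluster. The part of this in which genes are listed was not tested.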
